A study of Homo sapiens with 68 samples.

Results

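RNA of A673 cells treated for 3 days with doxorubicin at 59.88 nM was set directly against RNA of A673 cells treated for 3 days with puromycin at 0.09 uM. Each concentration is labelled the EC50 of its compound, so the cultures were matched by labelled effect and not by molar concentration. The comparison took 6 of the 68 arrays of the series, chosen by sample title, with 3 biological replicates of each compound, and neither the titles nor the methods say whether these came from separate cultures on separate days. P-values therefore measure the spread between replicates as labelled. The fit pooled this spread over all groups of 67 arrays, among them cells in cytarabine (ARA-C). Each SE comes from the same pooled spread, and the n beside it counts the arrays of each compound. The other arrays used beside them were vehicle (DMSO) at day 3 (n = 5), both compounds at 2xEC50 (119.76 nM and 0.18 uM) at day 3, and both compounds at EC50 at 24 h and day 5, each in triplicate other than puromycin at day 5, where 1 of 3 arrays was left out. All cells were of 1 line, A673, an established human Ewing sarcoma line that carries the EWS/FLI translocation.

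Doxorubicin is an anthracycline that intercalates into DNA and traps topoisomerase II on cut DNA, which leaves double-strand breaks. Puromycin is an aminonucleoside that resembles the end of a charged transfer RNA, enters the ribosome and ends the growing peptide early. Both kill Ewing sarcoma cells by different routes, and the series used them to ask whether loss of viability as such brings the expression pattern seen when EWS/FLI, the fusion transcription factor of this tumour, is taken away.

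The values are MAS5 signals, the intensity of a probe set on an Affymetrix array in plate format, and a signal under 10 was set to 10. Differences are doxorubicin minus puromycin on the log2 scale throughout, from 1 limma fit across 67 arrays, with p-values adjusted by Benjamini-Hochberg over 22215 probe sets and a threshold of 0.05. A probe set is called higher or lower where it passed that threshold, and a value in brackets after a gene is its log2 difference. In bulk RNA, fewer cells of a type and less RNA per cell cannot be told apart. In the 6 arrays the median signal was 121 to 137 with doxorubicin and 106 to 113 with puromycin, and 18.3% to 18.6% against 21.6% to 22.03% of signals lay under 10. The arrays did not overlap in either measure, and the part of this in the results was not tested. The log2 ratio of 3′ to 5′ ACTB signal, a sign of RNA quality, overlapped (0.69 to 1.61 and 0.93 to 1.46). The 6 Ewing sarcoma markers measured (CD99, NKX2-2, STEAP1, FLI1, PRKCB, CCND1) were present in every array, with summed signals of 34862 to 36330 and 33180 to 35750, and none passed the test.

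The cells in doxorubicin and the cells in puromycin differed widely. Of 22215 probe sets, 3577 (16.1%) were called, 2065 higher (9.3%) and 1512 lower (6.81%) with doxorubicin, while the median difference of all probe sets was 0.02. The larger differences lay on the doxorubicin side. A difference of at least 1 on the log2 scale was called for 1330 probe sets that were higher and 436 that were lower, and a difference of at least 3 for 121 and 2. The arrays of the compounds did not overlap for 8463 probe sets (38.1%). On the array plate, 2 doxorubicin arrays stood in row C and 1 in row D, where all 3 puromycin arrays stood. With plate row as a block 2106 probe sets were called. Only the doxorubicin arrays of this comparison link rows C and D, so differences under the block rest on the 1 doxorubicin array in row D. Leaving out the 2 doxorubicin arrays of row C gave the same differences and is no separate check. Calls lost under the block, here and below, rest on that 1 array. With the array left out of the fit put back 1867 were called. Of the 165 named genes that were called, 141 stayed called with the plate row block and 119 with all 68 arrays, and none changed sign. The split of higher and lower calls moved with the scaling, here and in the other comparisons. Shifting the arrays to a common median gave 1389 higher and 2907 lower and set the median of all probe sets at -0.22, and quantile normalization gave 1996 and 2044.

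The gene with the largest difference was CLDN5, which encodes a claudin of tight junctions and lies at chr22:19523024-19525337 of GRCh38.p14. Its signals were 1136, 1244 and 1264 with doxorubicin and 1.79, 15.7 and 3.598 with puromycin, against 15.9 to 75.3 in vehicle. The 3 doxorubicin arrays stood above the puromycin and vehicle arrays of the same day, and 2 of 3 puromycin arrays lay under the floor of 10. The floored log2 difference was 6.71 ± 0.63 (SE, n = 3 and 3; adjusted p = 1.75e-12). IGFBP5, a secreted binding protein of insulin-like growth factors, had signals of 1168, 1009 and 1167 and 39.2, 2.67 and 27.6, a difference of 5.65 ± 0.41 (SE, n = 3 and 3; adjusted p = 1.79e-16). Its 5 probe sets disagreed in size, from 0.96 to 5.65, and 3 were called.

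EHD2, an ATPase of caveolae, was above the floor with doxorubicin and not with puromycin, with signals of 392.2, 492 and 461 against 6.17, 3.28 and 6.58. It was at least 44.6-fold higher, since every puromycin array lay under the floor. S100A10, the partner of annexin A2 at the cell surface, had signals of 1816, 1648 and 1644 and 62.5, 40.5 and 40.5, a difference of 5.18 ± 0.44 (SE, n = 3 and 3; adjusted p = 4.69e-14). APOE, a lipid carrier, differed by 4.81 ± 0.39 (SE, n = 3 and 3; adjusted p = 9.71e-15), from signals of 1455, 1505 and 1387 and 46.9, 59.1 and 49.8. For APOE, 3 of 5 probe sets were called. In all of these genes the groups lay far apart and vehicle lay on the puromycin side. The other genes among the 12 largest were TM4SF1, a surface protein (5.44), EPAS1, the hypoxia-inducible factor HIF-2alpha (4.62, with a further probe set of 0.14 that was not called), STMN2, a microtubule regulator of neurons (4.60), EBI3, a cytokine subunit (4.68), and ICAM1, IL11 and PTX3, which are described with the inflammatory genes.

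Fewer genes were far lower with doxorubicin. CER1, a secreted antagonist of BMP and Nodal ligands, had signals of 3.16, 2.15 and 8.90 with doxorubicin and 192, 316 and 249 with puromycin, against 297 to 463 in vehicle. It was at least 24.7-fold lower, since every doxorubicin array lay under the floor. WNT5A, a ligand of noncanonical Wnt signalling, had 80.8, 42.0 and 61.7 against 292, 278 and 309, a difference of -2.30 ± 0.28 (SE, n = 3 and 3; adjusted p = 5.74e-09). HLF, a PAR bZIP transcription factor, differed by -2.86. The doxorubicin arrays lay below all vehicle and puromycin arrays for these 3 genes. Others that were far lower, at -2.83 to -2.38, were RIBC2, RNFT2, HSPA1L, which is an HSP70 protein, BTN3A2, a butyrophilin of T-cell recognition, SLC68A1, DHRS2, TDRD3 and SLC25A21, a mitochondrial carrier. With plate row as a block SLC25A21 was not called (adjusted p = 0.158 in limma).

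**Figure D1:**
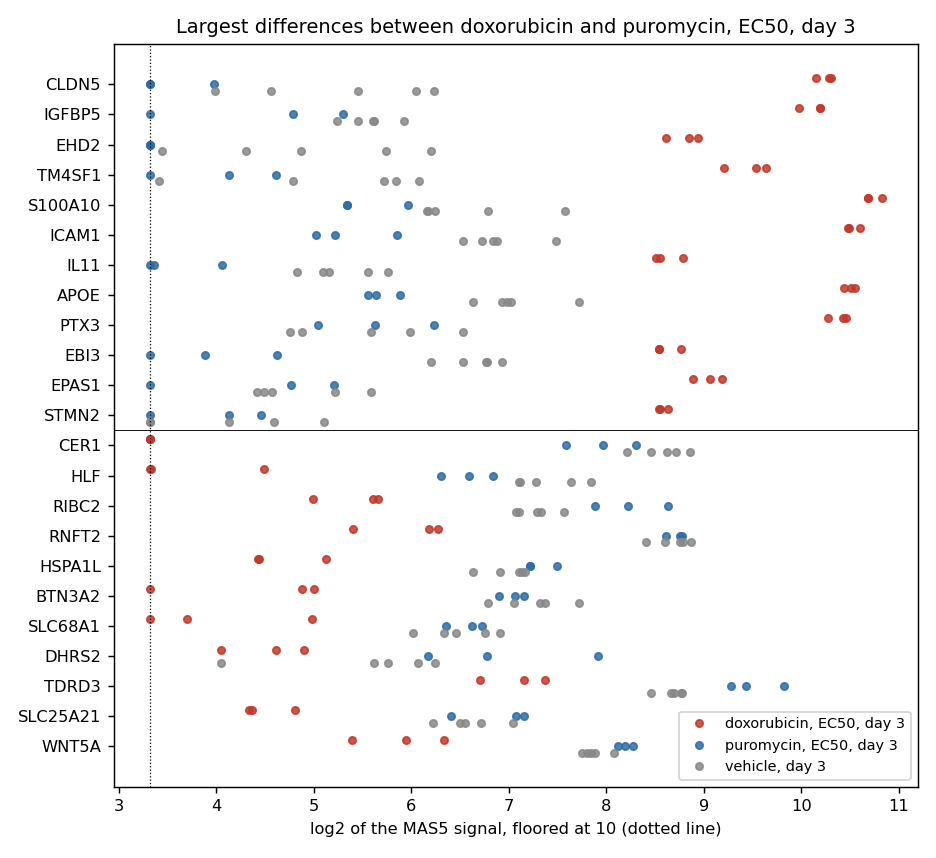
Log2 signal of each array (x axis, floored at 10) for the genes with the largest differences, 12 higher and 11 lower (y axis), for doxorubicin (red), puromycin (blue) and vehicle (grey) at day 3, 1 point an array. The 3 doxorubicin arrays lie to the right of all others in the upper 12 genes, while in most of the lower 11 puromycin and vehicle lie together; DHRS2 has 1 vehicle array as low as doxorubicin.

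The plot of single arrays shows where vehicle stood for these genes. Of the upper 12 genes it lay nearer puromycin on the log2 scale for all but EBI3, and its arrays lay above every puromycin array for CLDN5, EHD2, S100A10, ICAM1, IL11, APOE and EBI3.

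Inflammatory genes had the highest median of the lists. The counts of every list at EC50 and day 3 stand beside 9.3% higher and 6.81% lower over all probe sets. Those shares include dim probe sets, while a listed gene stands by its brightest, so the 2 are not matched for signal. With dim probe sets left out, 1913 were higher and 1723 lower among fewer tested. NF-kB is a transcription factor held in the cytoplasm by inhibitors until a signal frees it. DNA breaks are one such signal, and its targets include chemokines, interleukins and adhesion molecules. Of 18 measured genes of this kind, 11 were higher with doxorubicin (61.1%, against 9.3% of all probe sets) and none was lower, with a median difference of 1.73 (0.02 over all probe sets). ICAM1, which binds leukocytes, had signals of 1442, 1553 and 1422 with doxorubicin and 32.5, 37.1 and 57.7 with puromycin, against 92.4 to 179 in vehicle, a difference of 5.16 ± 0.45 (SE, n = 3 and 3; adjusted p = 1.20e-13). All 3 of its probe sets were called, from 3.16 to 5.16. PTX3, a secreted pattern-recognition protein, had 1404, 1376 and 1238 against 32.9, 49.3 and 75.3, a difference of 4.75 ± 0.39 (SE, n = 3 and 3; adjusted p = 2.22e-14). IL11, a cytokine of the IL-6 family, had 366, 376 and 441 against 6.84, 10.3 and 16.7, a difference of 5.04 ± 0.43 (SE, n = 3 and 3; adjusted p = 5.58e-14), while its further probe set, at 1.26, was not called. The doxorubicin arrays stood above all vehicle and puromycin arrays for these 3 genes.

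Of the chemokines that draw neutrophils, CXCL8 had signals of 1942, 2639.9 and 2600.1 with doxorubicin and 213, 144 and 135 with puromycin, a difference of 3.88 ± 0.34 (SE, n = 3 and 3; adjusted p = 1.85e-13). CXCL1 differed by 2.89, IL1B by 3.33 and IL1A by 1.85. CCL20 was at least 5.76-fold and CXCL2 at least 3.41-fold higher, since no puromycin array reached the floor. RELB, an NF-kB subunit, differed by 1.69 and TNFAIP3, an inhibitor of the pathway, by 1.56. The subunit genes NFKB1 (0.26) and NFKB2 (0.40) and the inhibitor gene NFKBIA (0.41) did not pass, nor did CXCL3, CCL2, IL6 and LIF. Against vehicle, the list's median was 1.47 with doxorubicin, 10 genes being higher (9.03% of all probe sets were), and -0.33 with puromycin, 5 being lower (2.4% of all). The comparisons with vehicle share the vehicle arrays.

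To show where the letters of an NF-kB site lie near these genes, the 250 bases before the start of 3 of the genes that were higher are printed from RefSeq (GRCh38.p14), 5′ to 3′ on the strand of the gene. Capitals mark matches to GGAANTTCC, read on both strands. These 3 had the largest differences among higher genes of the list whose window held a match, so IL11 and PTX3 were passed over.

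ICAM1: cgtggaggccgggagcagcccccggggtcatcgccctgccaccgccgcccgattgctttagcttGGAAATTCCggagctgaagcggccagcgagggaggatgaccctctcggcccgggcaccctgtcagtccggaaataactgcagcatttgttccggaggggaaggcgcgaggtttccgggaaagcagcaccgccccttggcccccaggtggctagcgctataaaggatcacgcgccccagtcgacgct

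CXCL8: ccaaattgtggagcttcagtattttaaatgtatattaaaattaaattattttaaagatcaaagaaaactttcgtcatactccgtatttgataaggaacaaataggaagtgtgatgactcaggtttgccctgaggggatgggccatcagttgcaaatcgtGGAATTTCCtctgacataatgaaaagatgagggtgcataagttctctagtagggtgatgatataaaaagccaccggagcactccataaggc

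CXCL1: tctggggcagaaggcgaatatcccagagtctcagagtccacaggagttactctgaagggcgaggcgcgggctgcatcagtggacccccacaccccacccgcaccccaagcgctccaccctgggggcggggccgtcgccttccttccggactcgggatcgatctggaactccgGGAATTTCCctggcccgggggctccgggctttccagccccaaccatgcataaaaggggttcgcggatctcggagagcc

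The windows are chr19:10270870-10271119 (plus strand), chr4:73740319-73740568 (plus strand) and chr4:73869143-73869392 (plus strand). The matches begin 186 bases before the start of ICAM1, 91 before that of CXCL8 and 78 before that of CXCL1, and none overlaps a match to another motif searched. Of 15 genes of the list with a window, 7 held the motif, against 0.996% of 27305 genes. It was present in 4 of 10 genes that were higher and in 3 of 5 that did not pass. List and motif were chosen for the same pathway, so the share set against all genes is no test.

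Interferon-stimulated genes, which encode antiviral sensors and effectors, were higher in 10 of 21 cases (47.6%) and lower in none, with a median of 1.06. OAS1, a sensor of double-stranded RNA, had signals of 84.3, 72.2 and 80.8 with doxorubicin and 13.6, 2.87 and 6.14 with puromycin, a difference of 2.83 ± 0.61 (SE, n = 3 and 3; adjusted p = 0.000423). IFI6 had 471, 306 and 448 against 56.5, 57.9 and 74.7, a difference of 2.68 ± 0.31 (SE, n = 3 and 3; adjusted p = 9.37e-10). IFIT1, which binds foreign RNA ends, differed by 2.65, the RNA sensor IFIH1 by 2.59, its relative RIGI by 1.68, and the membrane proteins IFITM1, IFITM2 and IFITM3, which hinder viral entry and are close paralogs, by 2.58, 2.60 and 2.19. MX1 (1.15), OAS2 (-0.82), IRF1 (0.03) and IRF9 (-0.10) did not pass. Of 14 genes of antigen presentation, 4 were higher and 2 lower. HLA-B was higher (1.91), as was HLA-C (1.75), although these probe sets may share sequence with other class I genes, and BTN3A3 was lower (-1.49). Against vehicle the interferon list had a median of 0.76 with doxorubicin and -0.20 with puromycin.

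The element that interferon-activated factors read is shown in the same way for IFI6 and IFIT1. Capitals mark matches to GAAANNGAA on either strand. These genes had the largest differences among those of the list whose window held a match, so OAS1 was passed over.

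IFI6: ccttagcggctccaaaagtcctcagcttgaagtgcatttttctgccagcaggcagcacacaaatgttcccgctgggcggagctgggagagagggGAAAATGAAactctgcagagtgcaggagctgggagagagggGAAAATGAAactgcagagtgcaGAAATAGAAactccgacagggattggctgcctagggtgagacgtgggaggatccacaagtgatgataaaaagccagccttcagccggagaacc

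IFIT1: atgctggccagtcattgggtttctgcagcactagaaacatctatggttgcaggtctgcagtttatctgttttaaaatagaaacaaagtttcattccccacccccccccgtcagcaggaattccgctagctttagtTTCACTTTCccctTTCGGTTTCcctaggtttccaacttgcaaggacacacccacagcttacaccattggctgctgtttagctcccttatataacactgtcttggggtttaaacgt

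The windows are chr1:27672193-27672442 (minus strand) and chr10:89392373-89392622 (plus strand). IFI6 held 3 matches, 156, 115 and 93 bases before its start, and IFIT1 held 2 at 115 and 102, with no overlap with another motif searched. The motif was in 13 of 17 genes of the list and in 8.41% of all genes. It was in 7 of 9 genes that were higher and in 6 of 8 that did not pass. Here too list and motif were chosen for the same pathway, and the share against all genes is no test.

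Of 12 blood cell markers, 2 were higher with doxorubicin (16.7%, against 9.3% of all probe sets) and none lower, PTPRC (CD45, at least 4.36-fold) and CD79A of B cells (1.58, not called with plate row as a block). The summed signal of the 12 was 283 to 350 with doxorubicin, 127 to 150 with puromycin and 152 to 300.1 in vehicle, and 4 to 5 of the 12 against 6 to 9 lay under 10. The doxorubicin and vehicle sums overlapped, and the list's median of 0.20 became -0.03 with a common median. The globin genes HBA1 (1.12) and HBB (-0.18) and CD3E (0.22) did not pass. In the puromycin day 5 array left out of the fit for its low correlation with the rest the sum was 90879. The part of blood cells in the result was not tested. Of 12 epithelial markers, KRT8 (2.12) and KRT18 (1.00) were higher (16.7%, against the same 9.3%), and CDH1 (0.57) and EPCAM (-0.38) did not pass. The further KRT8 probe set, at 0, was not called. The summed signal of the epithelial markers was 25293 to 27062 with doxorubicin, 10862 to 11803 with puromycin and 12264 to 14097 in vehicle.

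Genes of the extracellular matrix were higher in large part. The matrix is a mesh of fibrillar collagens, basement membrane proteins and glycoproteins that proteases remodel. Of 17 collagen genes, 13 were higher with doxorubicin (76.5%) and none lower, with a median of 1.59. COL1A1, the main chain of type I collagen, had signals of 3975, 3955 and 4029 with doxorubicin and 117, 208 and 203 with puromycin, against 534 to 1166 in vehicle, a difference of 4.55 ± 0.22 (SE, n = 3 and 3; adjusted p = 2.71e-23). It lay 2.36 above vehicle with doxorubicin and, with puromycin, differed from the same vehicle arrays by -2.19. COL3A1 differed by 3.53, COL5A1 by 2.96 and COL1A2, the partner chain of COL1A1, by 1.26. COL18A1, COL6A3, COL21A1 and COL8A1 did not pass.

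Of 24 matrix glycoproteins, 15 were higher and none lower, with a median of 1.36. THBS2, which binds collagen and restrains vessel growth, was at least 7.33-fold higher. Its relative THBS1 differed by 2.21, BGN (biglycan) by 2.36, POSTN (periostin) by 2.34, the basement membrane protein NID2 by 2.31, and LOX, which cross-links collagen, by 1.74. The 5 THBS1 probe sets ran from -0.35 to 3.06, and 3 were called. FN1 (fibronectin, 0.21), VCAN (0.49) and DCN (-0.32) did not pass. Of 15 proteases and inhibitors, 11 were higher and none lower, with a median of 1.26. MMP3, a stromelysin, had signals of 3659, 2390.1 and 2621 against 112, 142 and 157, a difference of 4.39 ± 0.36 (SE, n = 3 and 3; adjusted p = 1.60e-14), and the doxorubicin arrays stood apart from the rest. The gelatinases MMP9 and MMP2 differed by 3.70 and 1.77, and urokinase (PLAU) and its receptor (PLAUR) by 1.83 and 1.61. The inhibitors TIMP1 (0.81) and TIMP2 (1.53) were higher too, and TIMP3 (0.15) did not pass. With plate row as a block, PLAU was not called (adjusted p = 0.120 in limma).

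Contractile and cytoskeletal genes were higher in 10 of 17 cases and lower in none (median 0.66), among them TAGLN (1.59) and the focal adhesion protein ZYX (1.38). MYL9 (1.78) was at 0.30 with a floor of 32 (adjusted p = 0.793 in limma) and was not called with no floor or with all 68 arrays. ACTB (0.02) and ACTG1 (0.00) did not pass. Among the binding proteins of insulin-like growth factors, IGFBP3 (3.09), IGFBP4 (2.74) and IGFBP6 (2.32) were higher beside IGFBP5. The receptor gene IGF1R, at -0.76, did not pass and the adaptor IRS2 was lower (-0.47). Of 15 S100 proteins and annexins, 9 were higher and 1 lower. S100P differed by 3.26 and ANXA7 by -0.77. Of 23 lysosomal genes, 11 were higher and none lower (median 0.58), with GPNMB, a glycoprotein of lysosomes, at 2.82 and the protease CTSL at 1.38. Of 22 genes of BMP, TGF-beta and activin signalling, 6 were higher and none lower, among them the BMP antagonist GREM1 (2.62), BMP2 (2.14) and TGFB2 (1.63). Of the 4 TGFB2 probe sets 1 was called, and they ran from 0 to 1.63. MYL9 and TGFB2 were not called with plate row as a block (adjusted p = 0.108 and 0.116 in limma).

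**Figure D2:**
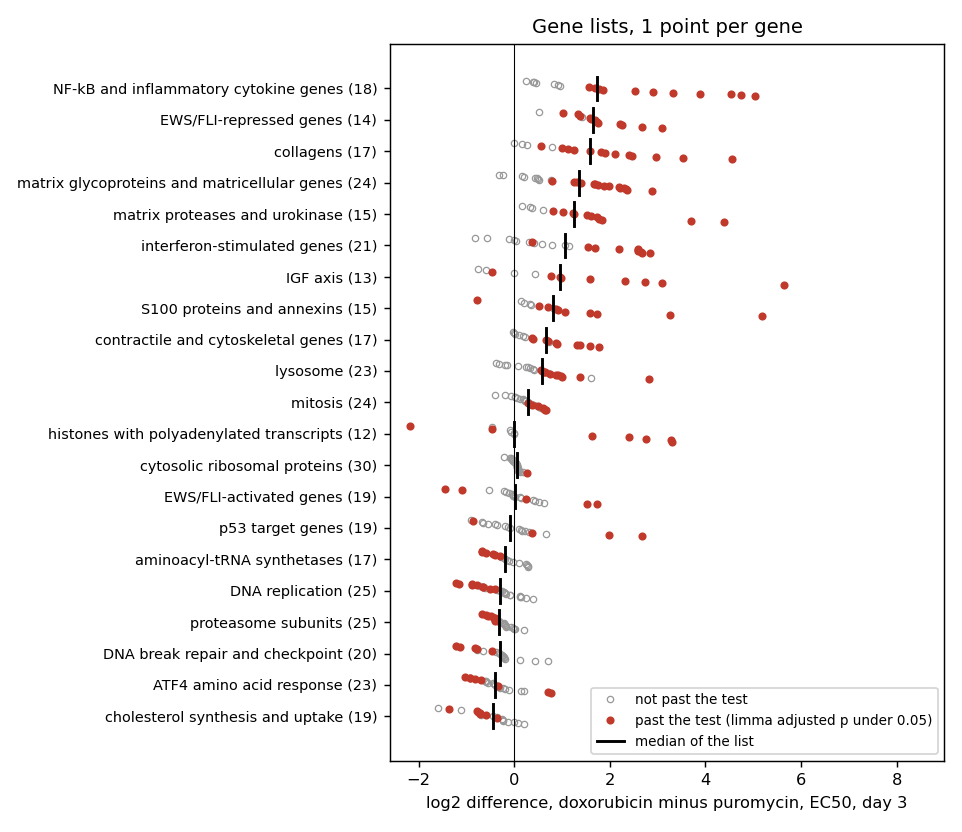
Log2 difference, doxorubicin minus puromycin at EC50 and day 3 (x axis), for each measured gene of each gene list (y axis, number of genes in brackets). Filled red points passed the test, open points did not, and the black bar is the list's median, from 1.73 for inflammatory genes to -0.44 for cholesterol synthesis.

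The plot of gene lists sets the inflammatory, matrix and EWS/FLI-repressed genes to the right and the genes of growth, namely replication, proteasome and cholesterol synthesis, slightly to the left of 0. Ribosomal proteins lie in a narrow band at 0.

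Genes tied to the target of doxorubicin differed by less. The gene for topoisomerase II alpha, TOP2A, had signals of 4061, 3808 and 4066 with doxorubicin and 2656, 2110.1 and 1993 with puromycin, against 2047 to 2892 in vehicle, a difference of 0.83 ± 0.15 (SE, n = 3 and 3; adjusted p = 2.68e-05). TOP2B, the beta form, had 2645, 3200.4 and 2664 against 4413, 4108 and 4297, a difference of -0.60 ± 0.15 (SE, n = 3 and 3; adjusted p = 0.00242). The isoforms thus lay on opposite sides of 0. TDP2, which removes topoisomerase II from DNA ends, was lower (-0.92), and TOP1 did not pass (0.06). Of 20 genes of break repair and checkpoints, 5 were lower and none higher, with a median of -0.31. NBN (-1.21) and MRE11 (-0.83) belong to the complex that senses breaks, XRCC4 (-1.14) and XRCC5 (-0.46) to end joining, and CHEK1 (-0.78) to the checkpoint. The further MRE11 probe set, at 0.40, was not called. ATM, BRCA1 and RAD50 did not pass.

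Targets of p53, the factor that DNA damage stabilizes, were not called as a block. Of 19, 3 were higher (15.8%, against 9.3% of all probe sets) and 1 lower (5.26%, against 6.81%), with a median of -0.10. CDKN1A, the cell cycle inhibitor p21, had signals of 1594, 1922 and 1726 against 260.1, 302 and 264, with 461 to 609 in vehicle, a difference of 2.66 ± 0.20 (SE, n = 3 and 3; adjusted p = 4.62e-16). The secreted factor GDF15 differed by 1.98 and the death receptor TNFRSF10B by 0.38, the latter not called with a common median, and SESN1 was lower (-0.86). MDM2 (0.14), BAX (-0.36), BBC3 (-0.68) and ZMAT3 (-0.90) did not pass. In G1 phase control, the inhibitor CDKN1C was higher (2.06) and CDKN1B lower (-1.48), CCND2 higher (2.00) and CCNE2 lower (-1.63). Of the 6 CDKN1C probe sets 1 was called, and they ran from -0.23 to 2.06. Without a call under the block of plate row were SESN1 and CCND2 (for CCND2 adjusted p = 0.0792 in limma). Neither was called with all 68 arrays, and SESN1 was called in none of the 6 fits without 1 array.

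Genes of DNA replication were lower in 9 of 25 cases (36.0%, against 6.81% of all probe sets) and higher in none, with a median of -0.30. POLA1, the catalytic subunit of the polymerase that primes synthesis, had signals of 1020.3, 1134 and 940.2 with doxorubicin and 2342, 2532 and 2332 with puromycin, a difference of -1.22 ± 0.16 (SE, n = 3 and 3; adjusted p = 2.35e-08). The primase subunit PRIM1 differed by -1.16, the sliding clamp PCNA by -0.64 and geminin (GMNN), which limits origin licensing, by -0.88. Of the MCM helicase subunits none passed. Against vehicle, 11 genes of the list were lower with doxorubicin (median -0.34) and none was called with puromycin (-0.02).

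Histone genes split. Most histone messages of dividing cells end in a stem loop without a poly(A) tail, and the list holds genes known to have tailed forms. Of 12 probe sets, 5 were higher and 2 lower. H2BC21 had signals of 1543, 1406 and 1315 against 110.3, 166 and 173, a difference of 3.27 ± 0.27 (SE, n = 3 and 3; adjusted p = 2.22e-14). H2BC4 differed by 3.29, H2BC5 by 2.75, H2AC6 by 2.39 and H2BC12 by 1.63. H2B genes are near-identical copies, so how much each contributes is uncertain. H4C3 had 513, 507 and 536 against 2238, 3344 and 1772, a difference of -2.19 ± 0.35 (SE, n = 3 and 3; adjusted p = 2.75e-06), and H2AX, whose phosphorylated protein marks breaks, was lower (-0.46). The groups did not overlap for H2BC21 or H4C3, in opposite directions.

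Genes of protein synthesis, the process that puromycin stops, differed little. Of 30 ribosomal proteins 1 was higher (RPS9, 0.28) and none lower, with a median of 0.05. Of 29 translation factors EEF2 was higher (0.30) and EIF4B lower (-0.39). Neither RPS9 nor EEF2 was called with a common median or with plate row as a block. Aminoacyl-tRNA synthetases, which charge transfer RNAs, were lower in 6 of 17 cases and higher in none, from -0.68 (YARS1) to -0.31 (IARS1). With all 68 arrays no synthetase was called, and with plate row as a block 5 were lower. Of 23 genes of the ATF4 response to amino acid shortage, 6 were lower, among them the amino acid carriers SLC7A1 (-1.02) and SLC7A11 (-0.93), and DDIT4 (0.77) and DDIT3 (0.71) were higher. Of the 6 SLC7A1 probe sets 2 were called, and they ran from -1.22 to 0.27. Of 17 genes of the unfolded protein response, HYOU1 was lower (-0.52) and none was higher.

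Among chaperones, 3 of 22 were higher and 5 lower. HSPA1A, the inducible HSP70, had signals of 2127, 2109.9 and 2353 with doxorubicin and 7268, 6499.8 and 5999 with puromycin, against 4097 to 6622 in vehicle, a difference of -1.58 ± 0.26 (SE, n = 3 and 3; adjusted p = 6.35e-06). HSPA1B differed by -1.77. HSPA1A and HSPA1B are near-identical, so their signals cannot be told apart with certainty. The small heat shock protein genes HSPB8 (1.72) and HSPB1 (1.29) were higher, HSPB8 with adjusted p = 0.0763 in limma under the block of plate row. Proteasome subunits were lower in 10 of 25 cases (40%, against 6.81% of all probe sets) and higher in none (median -0.31), from -0.68 (PSMD1) to -0.39 (PSMB1). With all 68 arrays no proteasome subunit was called, and with plate row as a block 4 were lower. Genes of cholesterol synthesis and uptake were lower in 7 of 19 cases and higher in none (median -0.44), with PMVK at -1.36. Against vehicle, cholesterol genes were lower in 15 cases with doxorubicin (median -0.90) and in 2 with puromycin (-0.43).

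Single genes of other lists were called. MYCN, a MYC family factor, was higher (2.28), and MYC (-0.09) did not pass. Of the 3 MYCN probe sets 1 was called, and they ran from -0.50 to 2.28. Of the 4 BCL2 probe sets 1 was called, and they ran from -1.12 to 0.15. In the BCL2 family, the survival gene BCL2A1 (2.50) and the death gene BID (0.62) were higher and BCL2 (-1.12) and BNIP3 (-0.96) lower, BID not called with a common median and BCL2A1 with adjusted p = 0.0713 in limma under the block of plate row. The enzymes of polyamine breakdown SAT1 (2.07) and SMOX (1.35) were higher, and ODC1 (-0.18), which makes polyamines, did not pass. ADM, a vasodilator peptide that hypoxia induces, differed by 2.35 and AKR1B10, an aldo-keto reductase, by 2.33. Of the drug transporters, ABCG2 (1.63) and ABCA1 (1.87) were higher, though not with plate row as a block, and ABCG2 was at 0.17 with a floor of 32 (adjusted p = 0.539 in limma) and not called in 5 of the 6 fits without 1 array. ABCB1, the efflux pump for which doxorubicin is a substrate, did not pass (1.01). Of the immediate early genes, EGR4 (2.33) and FOSL1 (1.56) were higher and EGR1 lower (-0.76). HOXD9 (-1.35), HOXB7 (-1.08) and HOXB2 (-0.98) were the 3 of 10 HOX genes that were lower. The further HOXD9 probe set, at 0.84, was not called.

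The series asked whether these compounds bring the EWS/FLI off pattern. Of 66 probe sets that rise when EWS/FLI is knocked down in other A673 arrays, 35 were higher with doxorubicin (53.03%) and 1 lower, with a median of 0.76. Of 77 that fall on knockdown, 18 were higher (23.4%) and 16 lower (20.8%), with a median of 0.21, which a common median turned to -0.03. Within the 66, the largest were PTX3 and CXCL8 (above), then NPAS2, a circadian transcription factor (3.85), and THBS2. Within the 77, EPHB3, an ephrin receptor, was higher (2.35), and the 3 named genes with the lowest values were SLC68A1 (-2.57), NOL4 (-1.70) and HOOK1 (-1.67).

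Taking in each array the average of the 66 on the log2 scale and subtracting the average of the 77 gave an off score of -1.11, -1.17 and -1.08 in the doxorubicin arrays and -2.06, -1.97 and -1.87 in the puromycin arrays, against -1.97 to -1.83 in vehicle. The doxorubicin arrays lay above all vehicle arrays, and the puromycin arrays overlapped them. Each average was also taken less the mean of all probe sets of the array. The 66 then stood at 1.19 to 1.22 with doxorubicin, 0.36 to 0.44 with puromycin and 0.30 to 0.60 in vehicle. The 77 overlapped between the groups, at 2.29 to 2.36, 2.32 to 2.42 and 2.28 to 2.43. Of 14 genes that other work gives as EWS/FLI-repressed, 12 were higher and none lower (median 1.65), among them IGFBP3 (3.09) and the surface receptor CD44 (2.25). Of 19 EWS/FLI-activated genes, 3 were higher (UPP1, FCGRT, JAK1) and 2 lower (BCL11B and CCK), and NKX2-2 (0.12), GLI1 (-0.52) and CCND1 (-0.11) did not pass. CCK (-1.45) lay under the floor in the 3 doxorubicin arrays, was at -0.25 with a floor of 32 (adjusted p = 0.838 in limma), and was not called with plate row as a block or in 5 of the 6 fits without 1 array. Of the screening signature, 5 of 7 genes that rise on knockdown were higher, CXCL8, PDGFA (2.92), SP100 (2.36), IGFBP7 (1.58) and FHL2 (1.40), while HSPB3 and ATXN1 did not pass. Of the 6 that fall, FCGRT was higher (1.51) and the rest did not pass. IGFBP7 was not called with plate row as a block (adjusted p = 0.301 in limma) or with a common median or quantile normalization. The 5 SP100 probe sets ran from -0.21 to 2.52, and 3 were called.

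**Figure D3:**
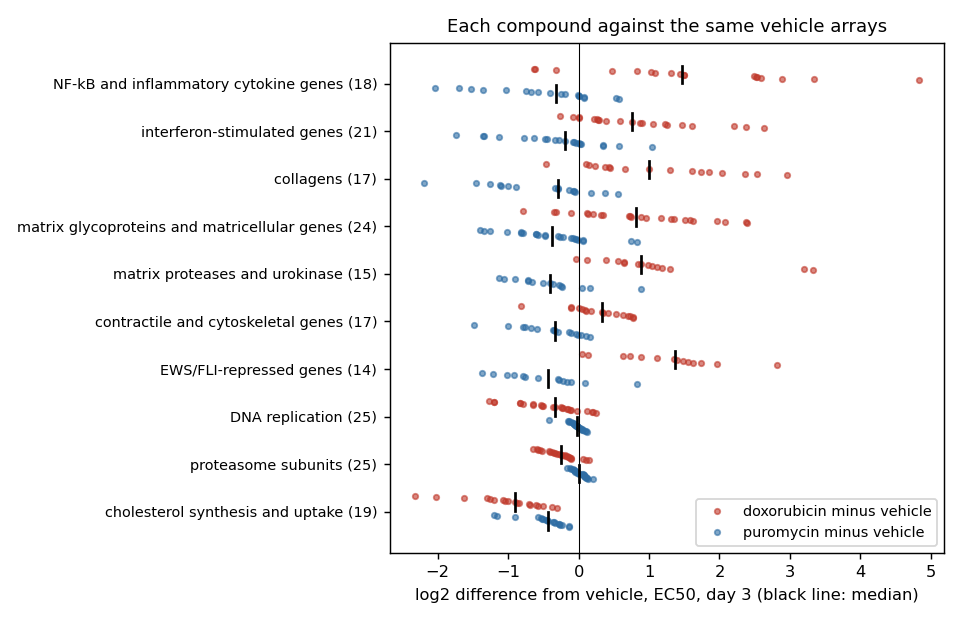
Log2 difference from vehicle at EC50 and day 3 (x axis) for the genes of selected lists (y axis), for doxorubicin (red, upper row of each list) and puromycin (blue, lower row), with medians as black bars. Both compounds are set against the same vehicle arrays; for collagens the medians are 1.00 and -0.29.

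The plot against vehicle shows how each compound placed itself. Doxorubicin minus vehicle called 20.1% of probe sets, 2006 higher (9.03%) and 2467 lower (11.1%), and puromycin minus vehicle 3.08%, 150 higher (0.675%) and 534 lower (2.4%). Collagens were higher in 10 cases with doxorubicin and lower in 5 with puromycin, and matrix glycoproteins higher in 13 and lower in 2 with doxorubicin and lower in 6 with puromycin. In matrix proteases, 10 were higher with doxorubicin, and 1 was higher and 4 lower with puromycin. With plate row as a block the comparisons with vehicle called 2839 and 28 probe sets. The split of puromycin minus vehicle turned with the scaling, to 437 higher and 219 lower with a common median and 454 and 410 with quantile normalization.

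The difference between the compounds changed with time. At 24 h 703 probe sets were called (3.16%), 573 higher (2.58%) and 130 lower (0.585%), and at day 5 there were 5119 (23%), 1689 higher (7.6%) and 3430 lower (15.4%). A common median turned the split to 144 higher and 631 lower at 24 h and gave 1358 and 4130 at day 5, and quantile normalization gave 407 and 347 and 2067 and 2436. Compound and plate row coincide at these times (rows A and B at 24 h, E and F at day 5). No group in the fit spans row B or row F and another row, so a row block cannot estimate their effects. At 24 h the block left the differences as they were (median of all probe sets 0.11 in both fits). At day 5 they depend on the row taken as reference. The counts with the block, 1188 at 24 h and 330 at day 5 (217 higher and 113 lower), are therefore no check on plate row. Leaving out 1 array brought the counts without a block to 317 (puromycin replicate 1), 330 (puromycin replicate 3) or 343 (doxorubicin replicate 2) at 24 h. At day 5 it brought them to 2814 (puromycin replicate 2). The difference itself differed between day 3 and 24 h for 993 probe sets (4.47%), 485 upward (2.18%) and 508 downward (2.29%), or 286 with all 68 arrays. A common median gave 542 upward and 322 downward. CLDN5 was 0.10 at 24 h, with signals of 3.25, 22.2 and 7.71 with doxorubicin and 8.96, 13.6 and 13.4 with puromycin, and APOE was 0.72. Neither had passed by then. COL1A1 was 1.38 at 24 h and 3.71 at day 5, and MMP3 was -0.23 and 6.09. WNT5A (-2.66 at 24 h) and CER1 (-3.67) were lower from the first time.

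Genes of mitosis turned. Of 24, 10 were lower and none higher at 24 h (median -0.39), 7 were higher and none lower at day 3 (0.28), and 1 was higher and 4 lower at day 5 (-0.14). The interaction with time passed for 12. AURKA, a kinase of the spindle pole, had signals of 6981, 5465 and 5802 with doxorubicin and 9991, 8427 and 8925 with puromycin at 24 h, and 11303, 11628 and 10878 and 6724, 7240.0 and 7456 at day 3. Its difference was -0.59 at 24 h and 0.66 at day 3, with an interaction of 1.25 ± 0.21 (SE; adjusted p = 4.48e-05 in limma). KIF20A, a kinesin of cytokinesis, gave -0.88 and 0.60. Shifting the arrays to a common median lowered the list's day 3 median to 0.04, with 1 gene higher and 1 lower, and AURKA, CENPE and KIF20A were not called. CENPE and KIF20A were not called with plate row as a block either. At day 3 the list had 4 genes higher with that block and 1 with all 68 arrays, and none lower. Quantile normalization gave 10 higher and 1 lower. At 2xEC50 the list's median was 0.01, with 7 higher and none lower. The promoter of CENPA, the histone H3 variant of centromeres (-0.84 at 24 h and 0.41 at day 3, the latter not past the test), shows the letters of the elements that mitotic genes often carry. Capitals mark CCAAT and TTTGAA on either strand. CENPA had the largest interaction with time among the list's genes whose window held both, so KIF20A and CENPE were passed over.

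CENPA: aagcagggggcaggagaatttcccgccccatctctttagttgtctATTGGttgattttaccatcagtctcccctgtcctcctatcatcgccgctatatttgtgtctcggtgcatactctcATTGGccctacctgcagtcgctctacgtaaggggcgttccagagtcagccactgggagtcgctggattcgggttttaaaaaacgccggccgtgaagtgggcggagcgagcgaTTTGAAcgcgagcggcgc

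The window is chr2:26785806-26786055 (plus strand) of GRCh38.p14, from RefSeq. The CCAAT box, found here as its complement, begins 205 and 130 bases and TTTGAA 18 bases before the start. CCAAT was in 16 of 19 genes of the list and in 37.0% of all genes, and TTTGAA in 9 of 19 and in 16.1%. These motifs were chosen for this list, so the shares are no test.

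**Figure D4:**
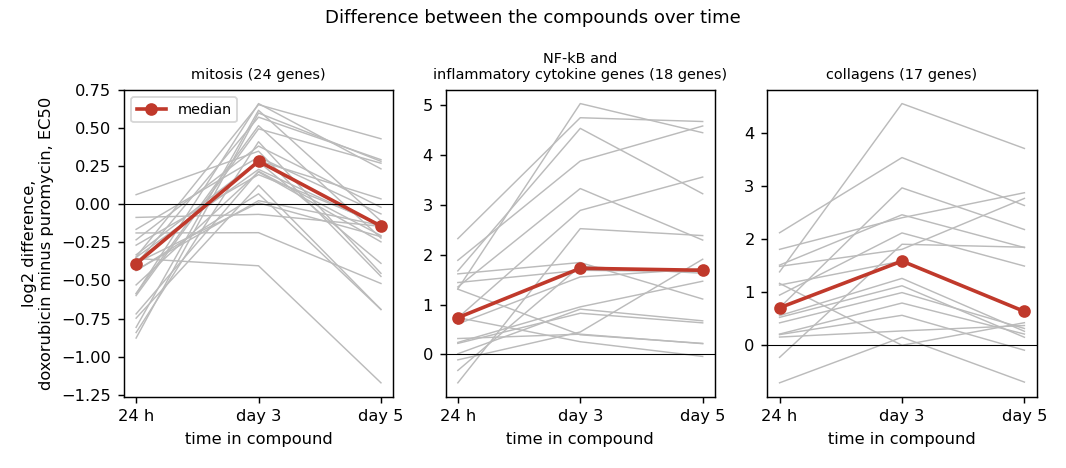
Log2 difference, doxorubicin minus puromycin at EC50 (y axis, each panel with its own scale), at 24 h, day 3 and day 5 (x axis) for genes of mitosis, inflammatory genes and collagens, 1 grey line a gene and the median in red. The mitosis median goes from -0.39 to 0.28 and -0.14, while that of inflammatory genes stays above 0 (0.74, 1.73 and 1.69).

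The plot over time also shows the collagens, whose median was 0.71, 1.59 and 0.64. Of inflammatory genes 5 were higher at 24 h and 11 at day 5, and the interaction with time passed for 6 of 18.

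At 2xEC50, in other arrays of the same day, 4691 probe sets were called (21.1%), 2626 higher (11.8%) and 2065 lower (9.3%). A common median turned this to 1817 and 3203, and quantile normalization to 2467 and 2571. At this dose the doxorubicin arrays lay in plate row D and the puromycin arrays in rows D (1 array) and E (2 arrays). No other group links these rows, so a row block here rests on the 1 puromycin array in row D. Of those higher at EC50, 1472 were also higher at 2xEC50 (71.3% of the former and 56.1% of the latter) and 8 were lower, and of those lower, 993 were also lower (65.7% and 48.1%) and 5 were higher. The difference itself differed between the doses for 143 probe sets (0.644%), or 12 with plate row as a block. COL1A1 had signals of 4454, 4373 and 4461 with doxorubicin and 144, 121 and 90.4 with puromycin at the higher dose, a difference of 5.25. CLDN5 differed by 4.95 and ICAM1 by 6.21. The matrix glycoproteins had a median of 1.96 at 2xEC50, with 21 higher. The off score was -1.02 to -0.84 with doxorubicin and -2.36 to -2.12 with puromycin at this dose. Here the average of the 77, less the array's mean, did not overlap either, at 2.14 to 2.17 and 2.51 to 2.60. ISG15 was higher at EC50 (0.37) and lower at 2xEC50 (-0.48).

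**Figure D5:**
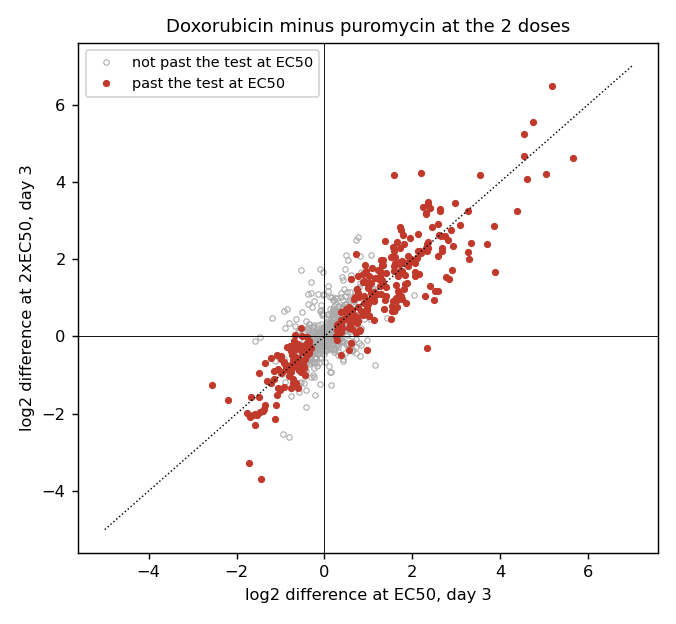
Log2 difference, doxorubicin minus puromycin at day 3, at EC50 (x axis) and 2xEC50 (y axis), for the 866 probe sets of the gene lists, filled where past the test at EC50, with the dotted line marking equal values. Of 308 past the test at EC50, 300 have the same sign at 2xEC50, and 247 pass there in the same direction and 1 in the opposite one.

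In the plot of the doses most filled points lie along the line of equal values, on either side of 0. EGR4, at 2.33 and -0.29, stands away from it.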

How the data were processed

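A673 cells in doxorubicin, puromycin or vehicle were measured on Affymetrix arrays in plate format. The intensity values that the authors deposited are MAS5 signals on a linear scale, with a scaling factor per array (the version is not given in the sources used here). The table lists 22930 probe sets. Leaving out 715 controls left 22215, of which 19230 had 1 gene symbol, 125 several and 2860 none. Signals were floored at 10 and put on the log2 scale. Without the floor, log2 of the signal plus 1 was used. One limma 3.58.1 fit (R 4.3.3) of group means with an intensity trend took 67 arrays (46 residual degrees of freedom). The array left out, puromycin EC50 day 5 replicate 3, was the one whose median correlation with the rest (0.624) was under 0.8. Benjamini-Hochberg adjustment covered all probe sets, and the threshold was 0.05. The number of arrays limits the precision, and dim genes are limited by signal over background.

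No 2 arrays were copies (highest correlation 0.987). Samples were grouped by title, and plate positions came from the study's sample table. Genes in lists were represented by the probe set of highest mean signal. Lists, motifs and members were chosen with earlier results of these data known. Named genes were the 12 largest differences in each direction among called probe sets whose 6 arrays did not overlap and whose higher mean was above the 40th percentile, up to 4 of each list and of the knockdown sets, the screen genes, and TOP1, TOP2A and TOP2B. One of the 12 lowest genes is not reported here. Further list members, chosen after their values were seen, are named to show those that did and did not pass. A fold against a compound with all arrays under the floor is a lower bound, taken against 10. On simulated data with 200 changed probe sets of 22215, the fit recovered 60% of those of log2 1 and 87% of those of log2 2, with 4 false calls. The changed probe sets were drawn from a middle range of signal. The noise was independent between arrays, with no plate or scaling effect, so these figures do not cover dim genes, plate or scaling. Alternatives were quantile normalization, a common median, another floor (32) or none, a cap at 16000 and leaving out dim probe sets. Others were all 68 arrays, only the arrays compared, only rows A-F, and leaving out the row C doxorubicin arrays of the main comparison. Further ones were plate row or replicate number as a block, no trend, and leaving out each array. After the data were seen, only day 3 arrays was added, as were the scaling, 68-array and block fits of the vehicle and interaction comparisons. Promoters are from RefSeq (GRCh38.p14), the 250 bases before the start. E2F letters (TTTCGCGC) were in 2 of 23 replication genes and SRE letters (TCACNCCAC) in 1 of 18 cholesterol genes, with 0.542% and 1.09% of all genes.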

Additional observations from a re-analysis of the deposited data

Results flagged for a closer look

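The difference between doxorubicin and puromycin at EC50 itself differed between day 3 and 24 h for 993 probe sets, and between 2xEC50 and EC50 at day 3 for 143, both by limma's interaction contrast with adjusted p under the threshold. Among the genes with the largest differences the change from 24 h to day 3 on the log2 scale was 6.61 for CLDN5, 5.78 for IGFBP5, 4.21 for TM4SF1, 4.09 for APOE, 3.94 for EPAS1, 3.90 for EHD2, 3.72 for IL11, 2.98 for STMN2, 2.65 for EBI3, 2.60 for S100A10, 2.43 for PTX3 and 2.07 for ICAM1. Several of these rest on signals at the floor with puromycin. Of the genes that were lower, RIBC2 changed by -2.87, SLC68A1 by -2.76, HLF by -2.40, TDRD3 by -2.02 and RNFT2 by -1.78.

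In mitosis the change was 1.48 for KIF20A, 1.42 for CENPE, 1.25 for AURKA, 1.25 for CENPA, 1.10 for PLK1, 1.09 for CDC20, 1.00 for UBE2C, 0.93 for CENPF, 0.74 for CDC25C, 0.62 for TTK, 0.61 for PTTG1 and 0.58 for CCNB1, all upward from 24 h to day 3. At 24 h the log2 ratio of 3′ to 5′ ACTB signal was 0.15 in doxorubicin replicate 2 and 1.95 and 1.67 in the other doxorubicin arrays, and the part of this in the change was not tested.

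DHRS2, a reductase that was lower with doxorubicin, had 1 vehicle array at day 3 far below the other 4, with a gap to its neighbour of 0.714 of the group's whole range. Chance puts about 1 in 20 groups past this mark.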

How the results depend on the processing

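Of the 165 named genes called in the comparison at EC50 and day 3, none reversed under the alternatives that measured it. Leaving out dim probe sets kept 153 of them. Between 0 and 46 of the 165 were no longer called. The number was 46 with all 68 arrays, 24 with plate row as a block, 11 with a common median and 5 with quantile normalization. It was 12 to 17 on leaving out an array. The count of 3577 became 1867 with all 68 arrays, 2106 with plate row as a block, 1678 in row D alone and 5370 with only day 3 arrays, chosen after seeing the data. At 2xEC50, 4691 became 2640 with all 68 arrays and 2533 with plate row. At 24 h, 703 became 146 with all 68 arrays and 98 with only the arrays compared. The plate row block, which could not estimate the effects of rows B and F, gave 1188 at 24 h and 330 at day 5 (5119 without it). Against vehicle, doxorubicin's 4473 became 2378 and 2839 (all 68 arrays, plate row) and puromycin's 684 became 173 and 28. The interaction with time fell from 993 to 286 with all 68 arrays, and that with dose from 143 to 8 and 12, or 253 with quantile normalization. Leaving out each array gave 2735 to 2935 at EC50 and day 3, 3601 to 4196 at 2xEC50, 317 to 614 at 24 h (343 without doxorubicin replicate 2, 317 and 330 without puromycin replicates 1 and 3) and 2814 to 4767 at day 5 (2814 without puromycin replicate 2). The replicate block gave 3544 at EC50 and day 3, 4662 at 2xEC50, 721 at 24 h, 4974 at day 5, 4112 and 563 against vehicle and 1007 and 150 for the interactions with time and dose. Deviations from the group mean, set against each other in same-numbered arrays of the compounds, correlated at -0.01, 0.02 and -0.04 at EC50 and day 3. These correlations were 0.02, 0.05 and 0.01 at 2xEC50, 0.09, 0.16 and 0.02 at 24 h and 0.00 and 0.01 at day 5. The numbers were therefore not taken as pairs. Under a common median the list medians turned to -0.03 for the 77 probe sets, -0.09 for ABC transporters, -0.14 for BMP signalling and -0.03 for blood markers. Dim genes near the floor are those that depth limits. Other causes were not tested.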
